A study of Mus musculus with 6 samples.

Results

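The RNA of 46 genes of mitosis was followed in MEL cells, a mouse erythroleukemia line held at the proerythroblast stage, as the cells differentiated along the erythroid lineage in 2% DMSO. The members were chosen by name for their part in the spindle checkpoint, kinetochore, condensin and cytokinesis machinery, and each was read from its RefSeq transcript with the highest mean count. All 46 were present among 32654 transcripts, and all 46 passed the filter on low counts that left 18351 transcripts for testing. Libraries were stranded mRNA-seq of cultures at day 0 (before DMSO), day 2 and day 4 (both in 2% DMSO), with 2 libraries per day labelled as replicates and 6 in all. Every group was the same line in serum-supplemented medium, so day 0 is the only untreated reference and no culture was kept without DMSO to day 2 or day 4. DMSO and time in culture therefore cannot be told apart.

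Mitosis separates the copied chromosomes into a pair of daughter cells. Cyclin B bound to the kinase Cdk1 drives entry, condensins and topoisomerase II compact the chromosomes, and kinetochores built on centromeres catch the spindle microtubules. A checkpoint holds the anaphase-promoting complex, the ubiquitin ligase that starts anaphase, until every kinetochore is attached, after which separase cuts cohesin and a midzone of microtubules sets the site of cytokinesis. Many of these genes are transcribed mainly in G2 and M phase, and erythroid precursors divide a limited number of times before they leave the cell cycle, condense the nucleus and fill with hemoglobin. The comparison of days 0, 2 and 4 asked how the RNA of this machinery changed along that course.

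Each library held between 35294930 and 53899476 counts summed over transcripts, and no member had fewer than 659 in any library. The 2 transcripts of Bub1 held identical counts and no read was listed as ambiguous, so a read could be counted for several transcripts. These totals can therefore exceed the number of reads. All tested transcripts, used as background below, can likewise include several of the same gene, whereas each member is 1 transcript. The label of the cells was checked against erythroid markers, whose 10 genes summed to 1068 and 1156 CPM (reads scaled to TMM library sizes) at day 0, 4599 and 5475 at day 2 and 17883 and 20060 at day 4. By day 4, 9 of them were higher and 1, the transcription factor Klf1, was lower (-0.54 ± 0.18, edgeR adjusted p = 0.0188), as it was at day 2 (-0.57 ± 0.18, edgeR adjusted p = 0.0176). Among markers of other blood lineages, Cd3e, Cd79a, Itgam and Elane were at or near 0 and were not tested, Mpo stayed below 0.3 CPM on the mean of every day, and Itga2b, which megakaryocytes and early progenitors express, was at 218, 207 and 569 CPM on the mean of days 0, 2 and 4. Pf4, a megakaryocyte gene, was at 50.01, 13.5 and 9.56 CPM on the same days, and Csf1r, a macrophage receptor, at 1.18, 0.36 and 0.64 CPM. The part of these cells or of the erythroid program in the results below was not tested.

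**Figure D1:**
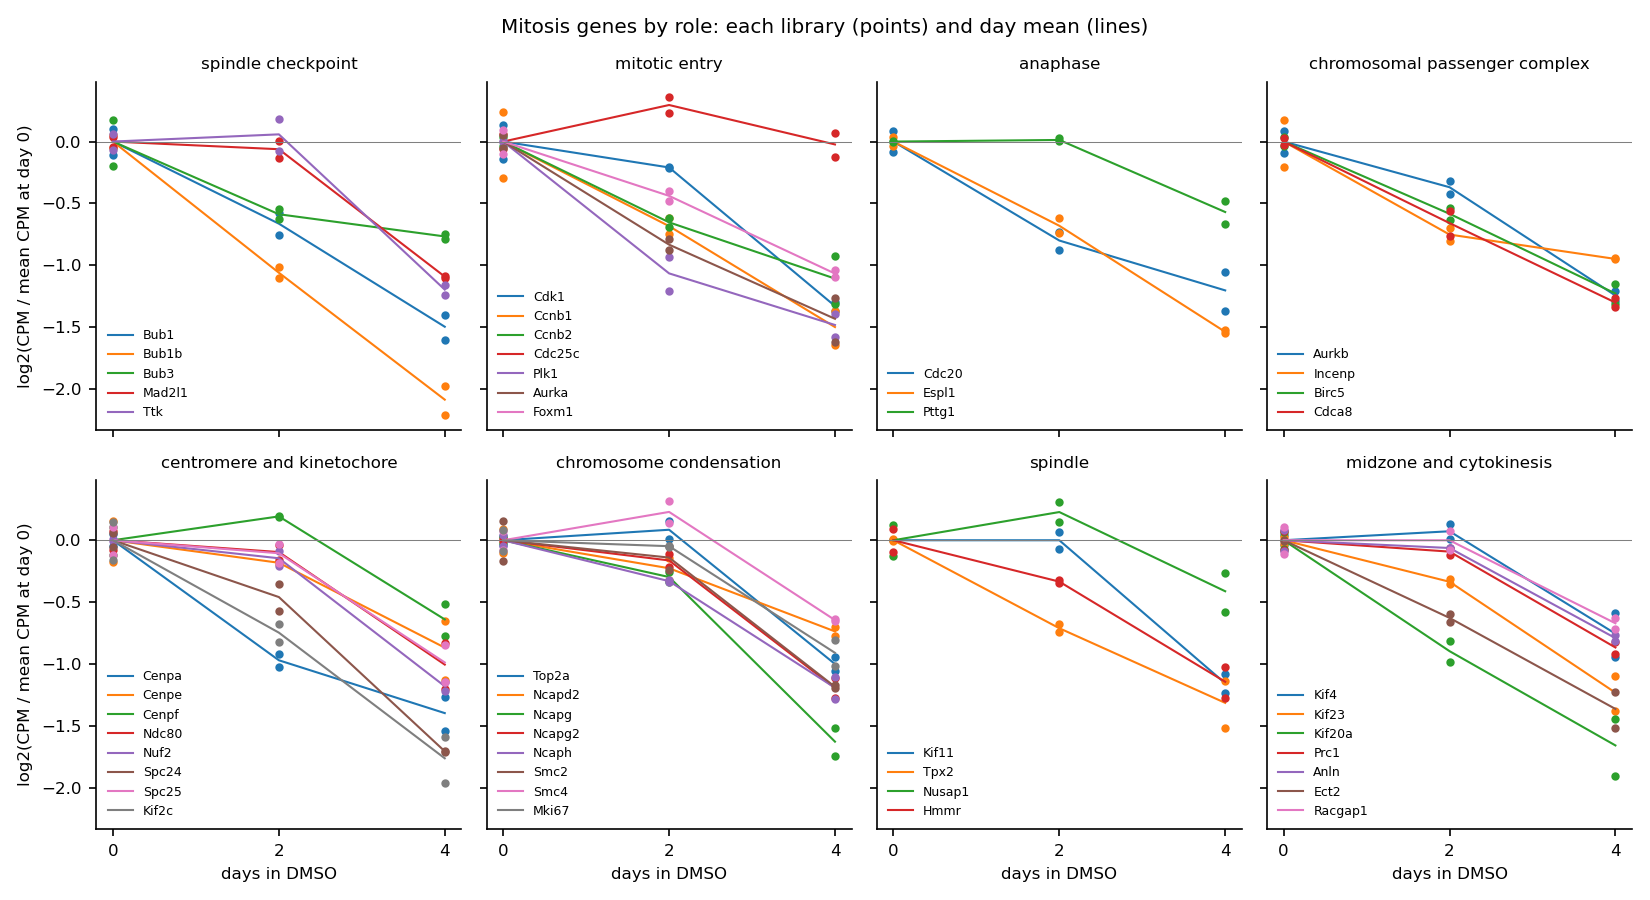
Log2 of each gene's CPM relative to its own mean at day 0 (vertical axis) against days in DMSO (horizontal axis), in 8 panels by role. Points are the 6 libraries and lines join the means of the days. Every line ends below 0 at day 4, that of Cdc25c by 0.02, and the lines part at day 2, where some genes have already fallen and others sit near 0.

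Transcripts of the mitotic machinery fell over the 4 days, with 24 of the 46 already lower at day 2 and 31.6% of all tested transcripts lower there. By day 4, 45 of 46 members were lower than at day 0 and 0 were higher (edgeR quasi-likelihood test, adjusted p below 0.05), against 36.1% lower and 36.2% higher over all tested transcripts. The median log2 fold change of the members was -1.18, against 0.00 for all transcripts. In 45 members both day 4 libraries lay below both day 0 libraries, as they did for 42.1% of all tested transcripts. Together the 46 genes summed to 10084 and 10493 CPM at day 0, 8844 and 8817 CPM at day 2 and 5083 and 4826 CPM at day 4. The day 4 sum was 48.2% of that at day 0, and no library of one day overlapped with those of another. Abundant genes weigh most in this sum, to which Mki67 gave 2024 CPM and Top2a 1068 CPM on the mean of day 0. In bulk RNA, fewer cells passing through mitosis and less of this RNA in each such cell cannot be told apart.

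More members were called in the second step than in the first. From day 0 to day 2, 24 of 46 members were lower and 0 were higher by edgeR, against 31.6% lower and 31.9% higher of all tested transcripts, with a median log2 fold change of -0.31 against 0.02. From day 2 to day 4, 43 members were lower and 0 were higher, against 16.4% lower and 14.6% higher, with a median of -0.82. At an unadjusted p below 0.05, 1 member (Cdc25c) was higher at day 2 and 0 were higher in the other comparisons, and DESeq2 called 0 members higher in any of them. The direction at day 2 was sensitive to scaling. With total counts in place of TMM, which moved the median of all transcripts from 0.02 to 0.22, 17 members were lower and 4 were higher at day 2 (Cdc25c, Cenpf, Smc4 and Nusap1). The calls of Foxm1, Aurkb, Spc24, Ncapg, Ncaph, Hmmr and Kif23 were lost, and the first steps of Mad2l1, Cenpe, Ndc80, Nuf2, Spc25, Ncapg2, Smc2, Mki67, Kif11, Prc1, Anln and Racgap1, none of them called, turned from below to above 0. Without day 0 replicate 2 the number higher was also 4.

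Whether the steps differed was tested directly, as the change from day 2 to day 4 minus the change from day 0 to day 2. That contrast was lower than 0, a steeper second step, in 23 members and higher than 0 in 1, against 16.9% and 13.1% of all tested transcripts. Day 2 enters both steps, and the calls rested on its libraries. They fell from 24 to 0 without day 2 replicate 1, to 6 without day 2 replicate 2 and to 14 without day 4 replicate 2, while at an unadjusted p below 0.05 the fit without day 2 replicate 1 still placed 18 members below 0 and 0 above. In that fit the calls over all transcripts fell from 5514 of 18351 to 1195 of 18731. DESeq2 made 22 calls in place of 24, without Cdc25c, Pttg1 and Ncaph and with Cenpa. Libraries of 1 day differed, in the median member, by 0.13 on the log2 scale at day 0, 0.11 at day 2 and 0.18 at day 4. In the median of all tested transcripts they differed by 0.174, 0.0976 and 0.115, so the members differed more at day 4.

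**Figure D2:**
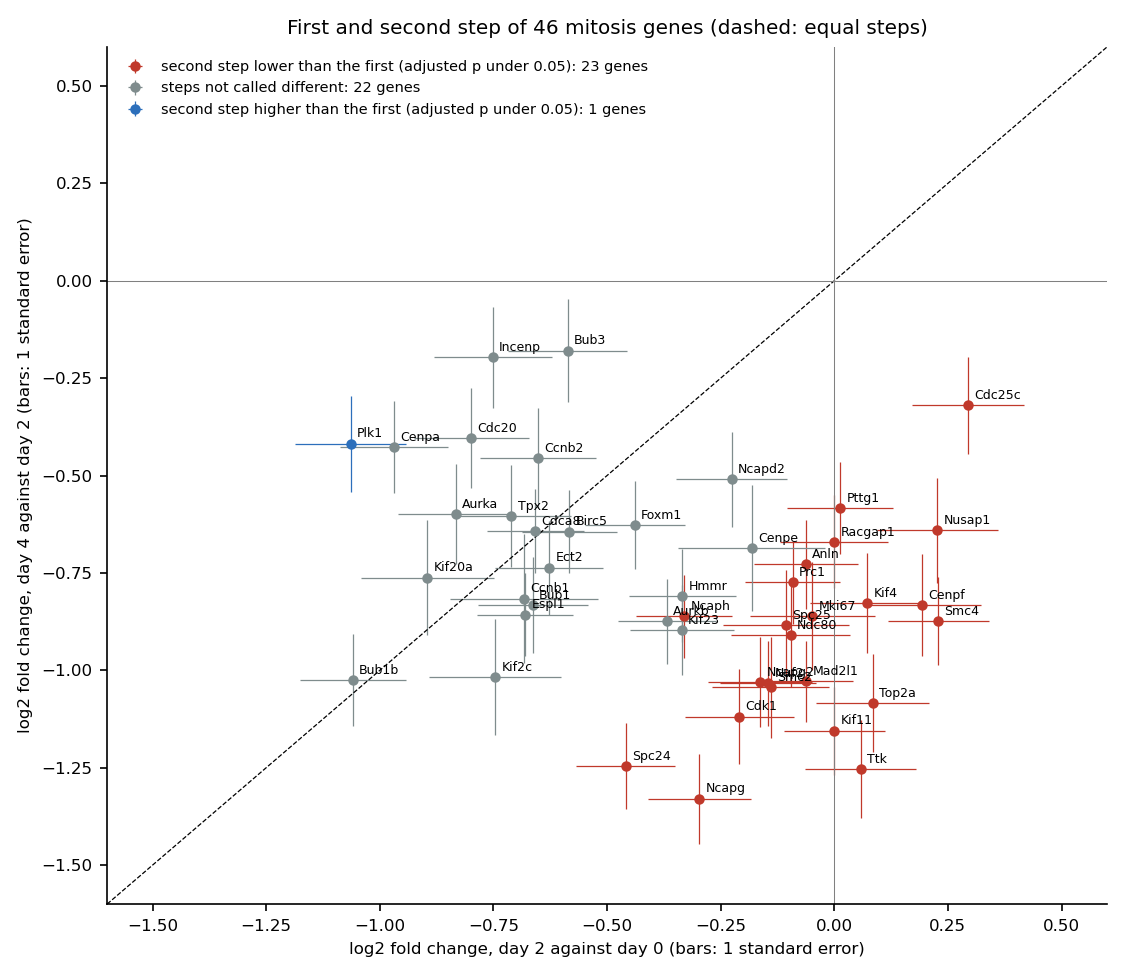
Log2 fold change of day 4 against day 2 (vertical axis) against that of day 2 against day 0 (horizontal axis) for each member, with bars of 1 standard error and colours for the test of the difference between the steps. Genes below the dashed line fell more in the second step. The 23 genes whose second step was called lower than the first lie below it and mostly near 0 on the horizontal axis. Plk1 is the 1 gene called the other way.

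By the calls of each step, the members fell into 4 kinds. Lower in both steps were 22 genes, at 47.8% to 81.4% of their day 0 level by day 2 and at 23.6% to 47.8% by day 4. Not called at day 2 but lower from day 2 to day 4 were 21 genes, at 85.5% to 117% of day 0 at day 2 and 39.8% to 75.2% at day 4. Of these 21, 19 had a steeper second step by the test of the difference: Mad2l1, Ttk, Cdk1, Pttg1, Cenpf, Ndc80, Nuf2, Spc25, Top2a, Ncapg2, Smc2, Smc4, Mki67, Kif11, Nusap1, Kif4, Prc1, Anln and Racgap1. The 21 were sorted by calls on the same libraries, which favours a steeper second step, so that test is no separate support. As said above, the calls of that test rested on the day 2 libraries. The other kinds were small, with Bub3 and Incenp called lower in the first step but not in the second and Cdc25c called in neither. Of all tested transcripts, 31.6% were lower in the first step and 16.4% in the second. The share of them in each joint kind was not counted, so how usual a kind is cannot be read here. These kinds describe calls, and a gene not called at day 2 is not thereby shown to be unchanged.

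Promoter sequence near the start is shown for 3 genes of each of the main kinds, since G2 and M phase genes are known for the cell cycle genes homology region (CHR), which the DREAM and MMB complexes bind, and for CCAAT boxes, which NF-Y binds. Cdc20, Espl1 and Cenpa were lower at day 2, and Cdk1, Top2a and Kif11 were not called there. Each run holds 120 bases before the start and 30 bases after it, read 5′ to 3′ in the sense of the gene, from RefSeq on GRCm38.p6. Capitals mark the CHR word TTTGAA, which reads TTCAAA on the other strand. They also mark its variant, which is the palindrome TTTAAA. The last word marked is the CCAAT box, which reads ATTGG on the other strand. The positions are chr4:118437314-118437463 (minus strand) for Cdc20, chr15:102296173-102296322 (plus) for Espl1, chr5:30666766-30666915 (plus) for Cenpa, chr10:69352883-69353032 (minus) for Cdk1, chr11:99024160-99024309 (minus) for Top2a and chr19:37376262-37376411 (plus) for Kif11.
Cdc20: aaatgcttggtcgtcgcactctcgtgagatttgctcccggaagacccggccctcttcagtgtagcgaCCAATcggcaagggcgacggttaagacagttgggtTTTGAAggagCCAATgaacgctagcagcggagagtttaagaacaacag
Espl1: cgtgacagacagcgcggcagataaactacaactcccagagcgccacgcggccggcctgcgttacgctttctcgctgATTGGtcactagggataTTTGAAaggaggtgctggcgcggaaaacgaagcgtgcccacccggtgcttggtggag
Cenpa: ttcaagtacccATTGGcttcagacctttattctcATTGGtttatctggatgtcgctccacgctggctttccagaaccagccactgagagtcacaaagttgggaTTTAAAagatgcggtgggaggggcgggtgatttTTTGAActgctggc
Cdk1: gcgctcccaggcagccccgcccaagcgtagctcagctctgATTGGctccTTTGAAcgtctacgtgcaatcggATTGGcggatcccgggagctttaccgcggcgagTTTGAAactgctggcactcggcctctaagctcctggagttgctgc
Top2a: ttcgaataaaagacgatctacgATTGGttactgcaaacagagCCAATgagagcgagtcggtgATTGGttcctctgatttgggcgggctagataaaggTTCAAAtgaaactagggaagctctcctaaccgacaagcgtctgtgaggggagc
Kif11: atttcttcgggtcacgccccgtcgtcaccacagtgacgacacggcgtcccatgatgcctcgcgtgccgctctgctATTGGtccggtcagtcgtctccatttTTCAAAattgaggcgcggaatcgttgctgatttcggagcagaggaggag

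The start here is that of the RefSeq window, which for Cdc20, Cdk1 and Kif11 is also the outer end of the gene span given below. For Cenpa it lies 9 bases inside that span, for Top2a 10 and for Espl1 39, and over the 38 windows it was the same base for 19 genes and inside the span for 19, by up to 3852 bases. All 6 stretches hold a CHR word and at least 1 CCAAT word. They are a chosen display and do not stand for all members, since over the longer windows below 25 of 38 held both. In Cdc20 the CHR word began 18 bases before the start with CCAAT words on either side, in Espl1 it began 27 bases before the start of the window's transcript, which is inside the gene span, and in Kif11 it began 19 bases before it on the other strand. Cdk1 held 2 CHR words, 71 and 15 bases before the start, while that of Cenpa lay 17 bases into the transcript and a TTTAAA lay 17 bases before the start. RefSeq windows of 300 bases, 250 before the start and 50 after it, were matched for 38 of 46 members and searched on both strands. TTTGAA occurred in 29 of the 38 (76.3%), against 18.1% of 27025 genes, and CCAAT in 28 (73.7%), against 37.9%. Both words occurred in 25 members (65.8%), against 7.1% of genes. Within 50 bases of the start on either side, a distance chosen after the positions were seen, TTTGAA began in 26 members (68.4%) and in 4.9% of genes.

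Other words were rarer. The variant TTTAAA was in 23.7% of member windows against 13.2% of genes. The E2F words TTCCCGC and TTGGCGC, of which the latter can share bases with ATTGG, were in 21.1% together, against 6.9%. TTTGAA was in 14 of 18 members that were lower at day 2 and in 15 of 20 that were not, and CCAAT was in 15 of 18 and 13 of 20, counts given without a test. Counting the bases before the start alone left TTTGAA in 36.8% of members against 16.3% of genes. A match describes letters and shows no binding, and the windows of Cdc25c, Foxm1, Aurkb, Incenp, Spc24, Smc4, Tpx2 and Kif20a were not used here.

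**Figure D3:**
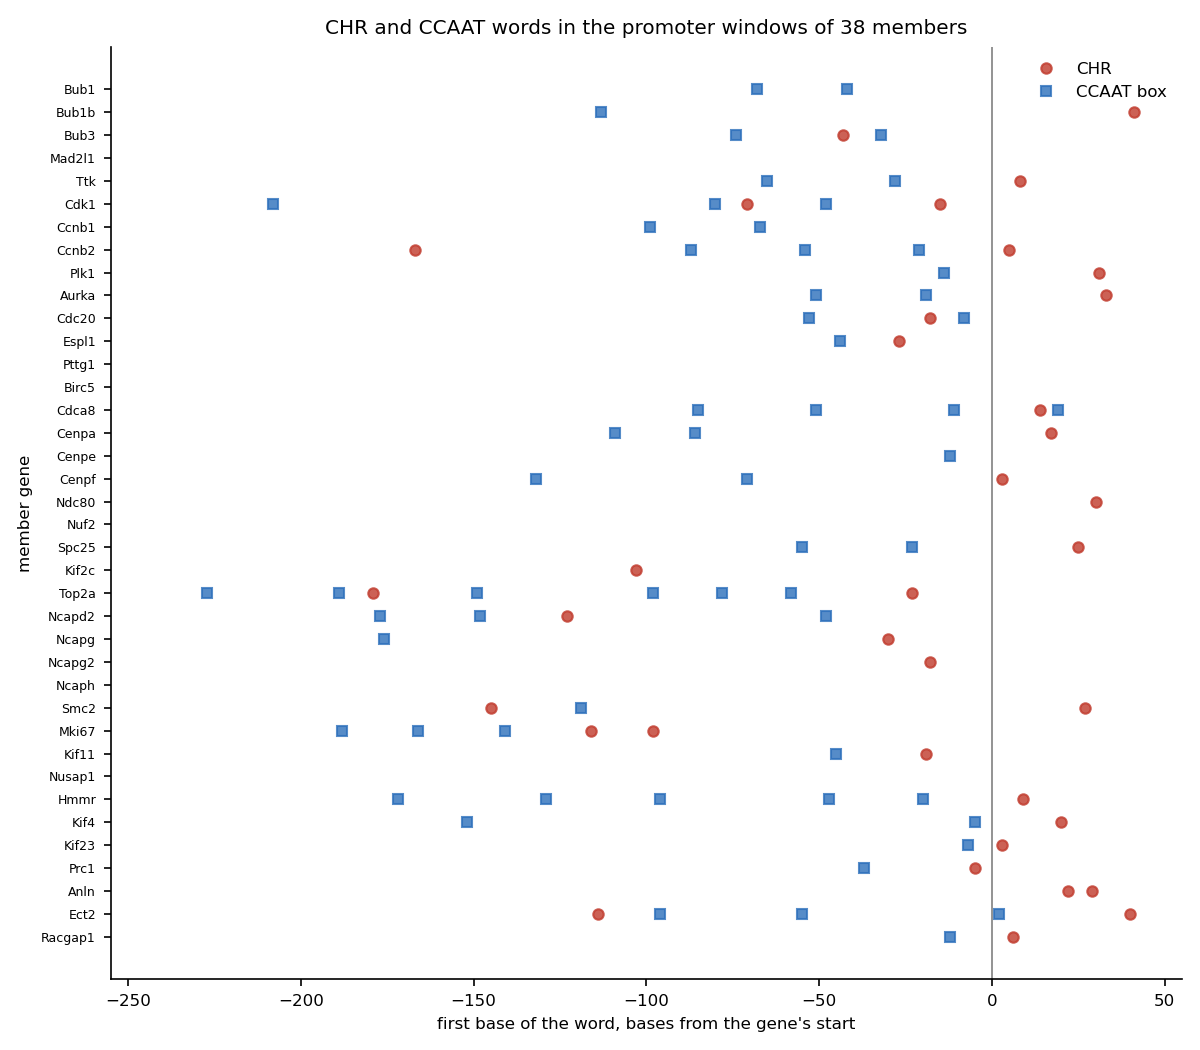
First base of each CHR word (TTTGAA, circles) and CCAAT word (squares) on either strand, in bases from the gene's start (horizontal axis), for the 38 members with a RefSeq window (vertical axis). CHR words began within 50 bases of the start in 26 members.

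Counts by role at day 2 stand against 31.6% of all tested transcripts lower there, and those from day 2 to day 4 against 16.4%. The coordinates beside a gene's RefSeq identifier are its whole span on GRCm38.p6. In the spindle checkpoint, 3 of 5 genes were lower at day 2 and 4 of 5 from day 2 to day 4. Bub1, Bub1b and Bub3 were lower at day 2, and Mad2l1 and Ttk (Mps1), the kinase that starts the checkpoint signal at kinetochores, were not called there. Bub1, a kinase that gathers checkpoint proteins at kinetochores, stood at 63.2% of day 0 at day 2 and 35.5% at day 4. Bub1b (NM_009773, chr2:118598202-118641592), which encodes BubR1 and as part of the mitotic checkpoint complex inhibits Cdc20, had 278 and 299 CPM at day 0, 134 and 143 CPM at day 2 and 73.5 and 62.6 CPM at day 4. Its libraries kept apart on all 3 days, and its log2 fold changes were -1.06 ± 0.12 (SE) in the first step and -1.03 ± 0.12 in the second, which did not differ by test (edgeR adjusted p = 0.914). At -2.08 ± 0.12 by day 4 (edgeR adjusted p = 1.21e-07), it fell the most of all 46 members, to 23.6% of day 0.

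Bub3 (NM_009774, chr7:131560367-131571895), the partner that brings Bub1 and BubR1 to kinetochores, had 281 and 217 CPM at day 0, 161 and 171 CPM at day 2 and 148 and 145 CPM at day 4. The day 0 libraries were further apart than those of the later days, but both lay above all of them. It was lower in the first step (-0.59 ± 0.13, edgeR adjusted p = 0.00255), and the second step was -0.18 ± 0.13 (edgeR adjusted p = 0.324), although the difference between steps was not called (0.41 ± 0.23, edgeR adjusted p = 0.201). Mad2l1, which encodes the checkpoint protein Mad2, had 80.1 and 75.7 CPM at day 0 and 78.1 and 71.0 CPM at day 2, which overlap, and 36.8 and 36.4 CPM at day 4. Ttk likewise had 45.0 and 41.2 CPM at day 0, 48.9 and 40.9 CPM at day 2 and 19.4 and 18.3 CPM at day 4. For Mad2l1 the second step was lower than the first by -0.97 ± 0.18 and for Ttk by -1.31 ± 0.21 (edgeR adjusted p = 0.0028 and 0.00141).

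Of 7 genes of mitotic entry, 5 were lower at day 2 and 6 were lower from day 2 to day 4. Cdk1 (NM_007659, chr10:69335146-69352912), the kinase of mitosis, had 292 and 242 CPM at day 0, 230 and 232 CPM at day 2 and 109 and 104 CPM at day 4. Both day 2 libraries were below those of day 0, yet the step of -0.21 ± 0.12 was not called (edgeR adjusted p = 0.147), and without day 0 replicate 2 it was -0.35 and was called (edgeR adjusted p = 0.0082). The second step was -1.12 ± 0.12 (edgeR adjusted p = 0.000206), and it was steeper than the first (edgeR adjusted p = 0.00803). Its cyclins were called lower already at day 2.

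Ccnb1 (NM_172301, chr13:100778739-100786486), cyclin B1, had 164 and 113 CPM at day 0, 82.2 and 90.0 CPM at day 2 and 53.5 and 44.4 CPM at day 4. The fall came in steps of -0.68 ± 0.16 and -0.82 ± 0.16 (edgeR adjusted p = 0.00369 and 0.00441), and the second was not called without day 2 replicate 2 (-0.75, edgeR adjusted p = 0.0512) or without day 4 replicate 2 (-0.69, edgeR adjusted p = 0.0545). Processed pseudogenes share up to 40.2% of the 31-base words of Ccnb1, so its level is uncertain. Ccnb2, cyclin B2, was at 63.6% of day 0 at day 2 and 46.4% at day 4.

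Plk1, the polo kinase that acts from entry to cytokinesis, had 86.6 and 87.1 CPM at day 0, 37.5 and 45.5 CPM at day 2 and 33.1 and 29.1 CPM at day 4. It was the 1 member whose first step was the larger by test, at -1.06 ± 0.12 against -0.42 ± 0.12 (difference 0.65 ± 0.21, edgeR adjusted p = 0.0418), a call lost with total counts and with the replicate number as a block. Aurka, the centrosomal Aurora kinase, fell to 56.2% and then 37.1% of day 0. Foxm1, a transcription factor that works with MMB on G2 and M phase genes, fell to 73.8% and 47.8%, and its first step was lost with total counts.

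Cdc25c, the phosphatase that removes inhibitory phosphates from Cdk1, was the 1 member not called lower by day 4. Its libraries had 22.8 and 24.8 CPM at day 0, 27.9 and 30.5 CPM at day 2 and 25.0 and 21.8 CPM at day 4. Day 2 lay above both other days, by 0.29 ± 0.12 over day 0 (edgeR adjusted p = 0.0559), and day 4 overlapped with day 0 (-0.02 ± 0.12, edgeR adjusted p = 0.866, and above 0 with total counts). The contrast of the steps was called (-0.61 ± 0.21, edgeR adjusted p = 0.0485) but not by DESeq2, by relative log expression factors or with the replicate block.

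Of the 3 genes of anaphase, 2 were lower at day 2 and all 3 were lower from day 2 to day 4. Espl1 (NM_001014976, chr15:102296254-102324357), separase, had 233 and 245 CPM at day 0, 143 and 156 CPM at day 2 and 83.1 and 81.8 CPM at day 4, with no overlap between days. Its steps were -0.68 ± 0.11 and -0.86 ± 0.11 (edgeR adjusted p = 0.000224 and 0.000403), and day 4 stood at 34.5% of day 0. Cdc20, the activator of the anaphase-promoting complex, had 133 and 119 CPM, then 68.7 and 76.1 CPM, then 60.8 and 48.8 CPM, and was lower in both steps (-0.80 ± 0.13 and -0.40 ± 0.13, edgeR adjusted p = 0.00026 and 0.0339). The difference between steps was not called for either gene (edgeR adjusted p = 0.491 for Espl1 and 0.198 for Cdc20). A processed pseudogene shares 25.1% of its 31-base words. Pttg1, securin, which holds separase inactive, had 26.6 and 26.7 CPM at day 0, 27.1 and 26.7 CPM at day 2 and 19.1 and 16.8 CPM at day 4. Its first step was 0.01 ± 0.12 and its second -0.58 ± 0.12 (edgeR adjusted p = 0.93 and 0.00454). The steps differed by -0.60 ± 0.20 (edgeR adjusted p = 0.045), a call lost with DESeq2, with relative log expression factors and with the replicate block.

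All 4 subunits of the chromosomal passenger complex, which corrects faulty attachments at centromeres and later moves to the midzone, were lower at day 2. Cdca8 (NM_026560, chr4:124918465-124936917), borealin, had 99.2 and 103 CPM at day 0, 59.8 and 68.4 CPM at day 2 and 42.1 and 40.1 CPM at day 4. Steps of -0.66 ± 0.11 and -0.64 ± 0.11 (edgeR adjusted p = 0.000305 and 0.00175) took it to 40.6% of day 0. Birc5, survivin, stood at 66.7% and then 42.7% of day 0, and Aurkb, the kinase of the complex, stood at 77.4% and 42.2%.

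Incenp (NM_016692, chr19:9872295-9899489), the scaffold that ties the kinase to the other subunits, differed from them in that its second step was not called. Its libraries had 143 and 186 CPM at day 0, 94.0 and 101 CPM at day 2 and 84.9 and 85.4 CPM at day 4. The first step was -0.75 ± 0.13 (edgeR adjusted p = 0.000462) and the second -0.20 ± 0.13 (edgeR adjusted p = 0.27), and the difference between steps missed the threshold (0.55 ± 0.23, edgeR adjusted p = 0.0862). Summed over the complex, the CPM was 65.4% of day 0 at day 2 and 45.4% at day 4.

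At centromeres and kinetochores, 3 of 8 genes (Cenpa, Spc24 and Kif2c) were lower at day 2, a share close to the 31.6% of all tested transcripts, and all 8 were lower from day 2 to day 4, against 16.4%. Cenpa, the histone H3 variant that marks centromeres, had 174 and 186 CPM at day 0, 88.4 and 95.3 CPM at day 2 and 74.9 and 61.9 CPM at day 4, which is 51.1% and then 38.0% of day 0. Kif2c (NM_134471, chr4:117159633-117182624), MCAK, which depolymerizes microtubules at centromeres, had 81.7 and 101 CPM, then 51.6 and 57.3 CPM, then 30.5 and 23.5 CPM. It fell the most of the kinetochore genes, by -1.76 ± 0.15 in all (edgeR adjusted p = 1.54e-06).

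The NDC80 complex, the main microtubule coupler of the kinetochore, has 4 subunits. Ndc80 and Nuf2, which form the arm that binds the microtubule, were at 93.6% and 90.4% of day 0 at day 2, and at 49.9% and 44.2% at day 4. Spc25 was at 93.0% and 50.5%. Its partner Spc24 was at 72.8% and 30.7%, and was called lower at day 2 (-0.46 ± 0.11, edgeR adjusted p = 0.00355, lost with total counts). In all 4 the second step was the steeper (edgeR adjusted p between 0.00523 and 0.0308), with Spc24 at 121 and 131 CPM on day 0, 85.0 and 98.7 CPM on day 2 and 38.6 and 38.9 CPM on day 4.

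Cenpf (NM_001081363, chr1:189640606-189688107), a large coiled-coil protein of the outer kinetochore and nuclear matrix, had 324 and 379 CPM at day 0, 400 and 404 CPM at day 2 and 246 and 206 CPM at day 4. Both day 2 libraries were above both of day 0, with a first step of 0.19 ± 0.13 (edgeR adjusted p = 0.216). That rise was called with total counts (0.39, edgeR adjusted p = 0.0227) and without day 0 replicate 2 (0.30, edgeR adjusted p = 0.0418). The second step was -0.83 ± 0.13 (edgeR adjusted p = 0.00128). Cenpe, the kinetochore motor that carries chromosomes to the metaphase plate, had 208 and 262 CPM, then 208 and 206 CPM, then 150 and 108 CPM, the largest gap of any member between the day 4 libraries on the log2 scale.

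The summed CPM of the chromosome condensation genes, most of it from Mki67 and Top2a, was 96.7% of day 0 at day 2 and 51.0% at day 4. The median log2 fold change at day 2 over its genes was -0.15 (0.05 with total counts), against -0.09 (0.11) for midzone and cytokinesis genes, and 2 of 8 were called lower in the first step and all 8 in the second. Mki67 (NM_001081117, chr7:135689784-135716450), Ki-67, which coats mitotic chromosomes and is the usual marker of proliferation, had 1907 and 2142 CPM at day 0, 1954 and 1962 CPM at day 2 and 999 and 1157 CPM at day 4. The first step was -0.05 ± 0.14 (edgeR adjusted p = 0.776, and above 0 with total counts or without day 0 replicate 2) and the second -0.86 ± 0.14 (edgeR adjusted p = 0.00145). Top2a, topoisomerase II alpha, which untangles sister chromatids, had 1040 and 1096 CPM, then 1187 and 1078 CPM, then 555 and 514 CPM, and its second step was steeper by -1.17 ± 0.21 (edgeR adjusted p = 0.00277).

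Ncapg (NM_019438, chr5:45669891-45700547), a subunit of condensin I, fell the most of the 8. It had 219 and 226 CPM at day 0, 186 and 176 CPM at day 2 and 77.6 and 66.6 CPM at day 4, and its libraries did not overlap between days. The first step of -0.30 ± 0.11 was close to the threshold (edgeR adjusted p = 0.0386) and was lost with total counts (-0.10) and in 4 of the fits that left out a library: day 2 replicate 1 (-0.34, edgeR adjusted p = 0.114), day 2 replicate 2 (-0.25, 0.223), day 4 replicate 1 (-0.29, 0.0527) and day 4 replicate 2 (-0.30, 0.0514). Its second step of -1.33 ± 0.12 (edgeR adjusted p = 9.56e-05) was the largest of all members. Exons of Ncapg overlap those of Lcorl on the opposite strand by 699 bases, and whether counting used strand is not given in the sources used here.

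Among other condensin genes, Ncaph, the kleisin of condensin I, was at 79.5% of day 0 at day 2 and 43.8% at day 4, and Ncapd2, of the same complex, at 85.5% and 60.0%. Smc2 and Smc4, the ATPases shared by both condensins, stood at 90.8% and 117% of day 0 at day 2 and at 44.0% and 64.0% at day 4. Ncapg2, of condensin II, stood at 89.3% and 43.7%. From day 2 to day 4 these 5 members fell by log2 values between 0.51 (Ncapd2) and 1.04 (Smc2). The other subunits particular to condensin II, Ncapd3 and Ncaph2, are not members and were called in no comparison of the main fit. Their log2 fold changes by day 4 in that fit were 0.10 ± 0.11 and 0.00 ± 0.11 (edgeR adjusted p = 0.403 and 0.968). With total counts both were called higher at day 2, by 0.31 and 0.45. In that setting 1 of the 2 was also called lower in the contrast of the steps.

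**Figure D4:**
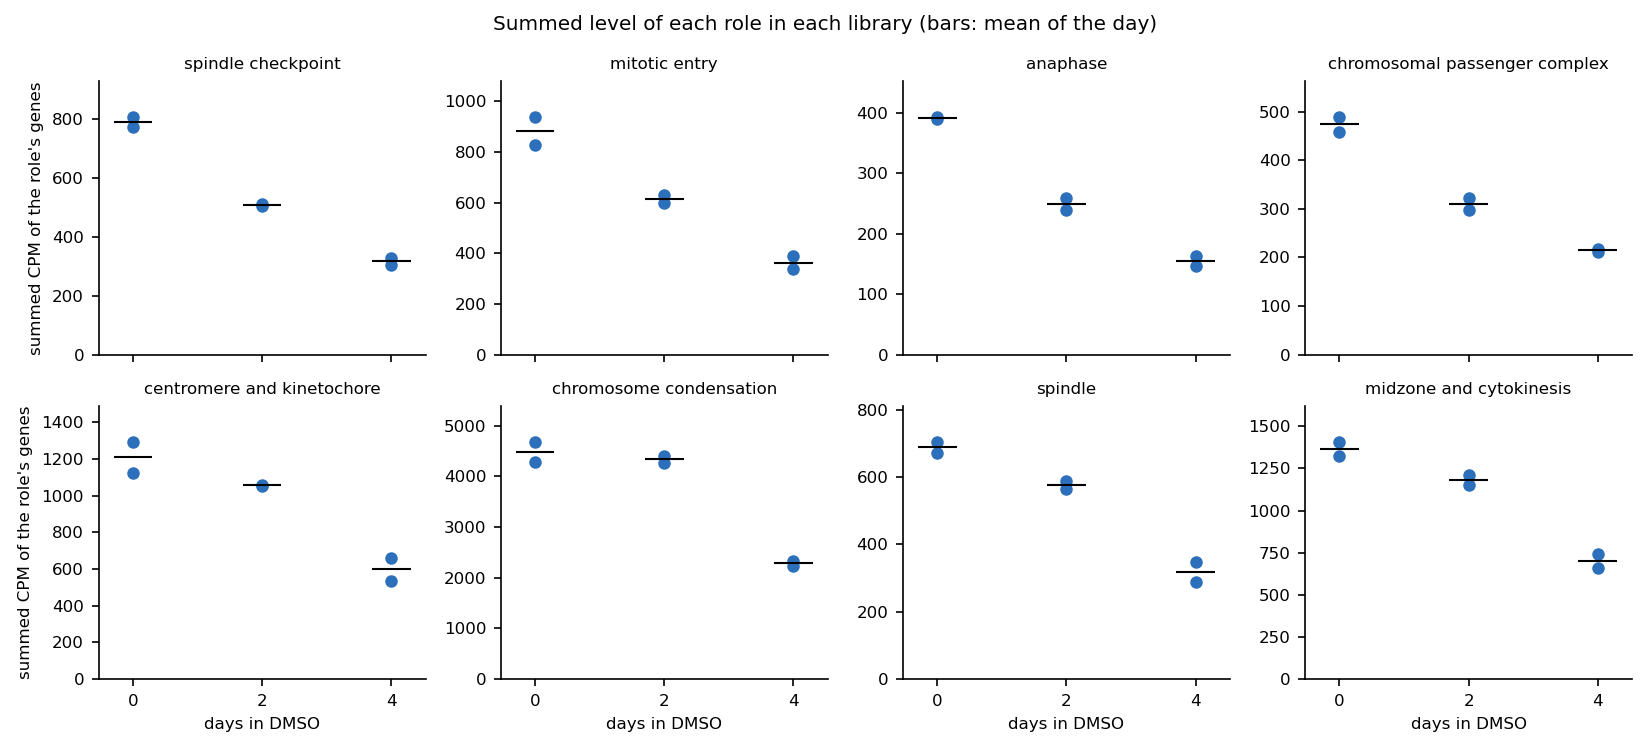
Summed CPM of the genes of each role (vertical axes, from 0 and scaled to each panel) in the 6 libraries (points) against days in DMSO (horizontal axis), with bars at the mean of each day. Chromosome condensation sits at 97% of its day 0 mean on day 2, and kinetochore, midzone and spindle genes sit at 87%, 87% and 84%. Anaphase, checkpoint, passenger complex and entry genes sit between 63% and 69% on that day. All roles are between 40% and 51% at day 4.

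Of the 4 spindle genes, Tpx2 and Hmmr were lower at day 2 and all 4 were lower from day 2 to day 4. Hmmr, a microtubule-binding protein of spindle poles, stood at 79.3% of day 0 and then 45.3%. Tpx2 (NM_001141977, chr2:152847964-152895321), which activates Aurora A and nucleates microtubules near chromosomes, had 231 and 233 CPM at day 0, 139 and 145 CPM at day 2 and 106 and 81.2 CPM at day 4. Its first step was -0.71 ± 0.13 (edgeR adjusted p = 0.000699). The second step of -0.60 ± 0.13 (edgeR adjusted p = 0.00613) was lost without day 2 replicate 1 (-0.64, edgeR adjusted p = 0.0633), day 2 replicate 2 (-0.57, 0.0649) or day 4 replicate 2 (-0.43, 0.0879).

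Kif11 (NM_010615, chr19:37376382-37421863), Eg5, the motor that pushes spindle poles apart, was among those not called at day 2. It had 236 and 235 CPM at day 0, 246 and 225 CPM at day 2 and 111 and 100.2 CPM at day 4, so that the day 2 libraries lay on either side of those of day 0. The first step was 0.00 ± 0.11 and the second -1.15 ± 0.11 (edgeR adjusted p = 0.999 and 0.000146), and the steps differed by -1.15 ± 0.19 (edgeR adjusted p = 0.00162). Nusap1, a microtubule bundler, had 57.1 and 67.8 CPM, then 77.3 and 69.0 CPM, then 52.0 and 41.9 CPM. It changed least of the members called at day 4 (-0.41 ± 0.13, edgeR adjusted p = 0.0166, lost with total counts), and its exons overlap those of Oip5 on the opposite strand by 172 bases.

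In the midzone and cytokinesis group, Kif20a, Kif23 and Ect2 were lower at day 2 and all 7 genes were lower from day 2 to day 4. Kif20a, the kinesin that brings the passenger complex to the midzone, had 249 and 226 CPM at day 0, 120 and 135 CPM at day 2 and 87.0 and 63.5 CPM at day 4. It fell the most of the group, in steps of -0.90 ± 0.15 and -0.76 ± 0.15 (edgeR adjusted p = 0.000332 and 0.00361), and the second was not called without day 2 replicate 2 (-0.68, edgeR adjusted p = 0.0503). Kif20a shares 977 bases of exon with Cdc23 on the opposite strand.

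Anln (NM_028390, chr9:22331214-22389211), anillin, the scaffold of the contractile ring, had 424 and 378 CPM at day 0, 384 and 384 CPM at day 2 and 236 and 228 CPM at day 4. Its first step was -0.06 ± 0.11 (edgeR adjusted p = 0.649, and above 0 with total counts or without day 0 replicate 1), and its second -0.73 ± 0.11 (edgeR adjusted p = 0.00128). The centralspindlin pair, which bundles midzone microtubules, did not share a call at day 2. Kif23, its motor, was at 79.3% of day 0 at day 2, and Racgap1, its GTPase-activating subunit, had a first step of 0.00 on the log2 scale, while at day 4 they stood at 42.6% and 62.8%. Ect2, the exchange factor that centralspindlin recruits, was at 64.8% and 38.9%. Prc1 and Kif4, which set the overlap of midzone microtubules, were at 93.8% and 105% at day 2 and at 54.9% and 59.3% at day 4. Exons of Prc1 overlap those of Rccd1 by 670 bases and exons of Kif4 those of Pdzd11 by 683 bases, on the opposite strand in each case.

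Per length, on the TPM scale (reads per base of transcript, scaled to a fixed library total), Top2a and Mki67 were the most abundant members at day 0 (457 ± 5.71 and 450 ± 26.1 TPM, mean ± SD, n = 2), and their libraries overlapped. Cenpa followed at 274 ± 6.49 TPM, and its libraries lay below those of both. The lowest were Cdc25c (27.4 ± 0.96 TPM) and Foxm1 (30.9 ± 2.21 TPM), which did not overlap. At day 4 Mki67 and Top2a still led, at 261 ± 22.6 and 249 ± 17.96 TPM with overlapping libraries. Ect2, Ttk and Foxm1 were the lowest, at 15.9, 16.0 and 16.1 TPM, which overlapped. Bub1b moved from rank 10 of 46 to rank 26, and Cdc25c from rank 46 to rank 39. TPM is relative to the whole library and not to TMM sizes, so steps between days on this scale differ from those given above.

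Related genes outside the 46 were read from lists of the same machinery. Of 74 other mitosis genes, 29 were lower and 12 higher at day 2 (median log2 fold change -0.24), against 31.6% and 31.9% of all tested transcripts, and with total counts 17 were lower and 22 higher. From day 2 to day 4, 57 were lower and 1 higher (-0.71), against 16.4% and 14.6%, and by day 4, 63 were lower and 4 higher (-0.90), against 36.1% and 36.2%. Of 35 kinetochore and checkpoint genes in it, 13 were lower and 5 higher at day 2, the first close to the share of all transcripts (with total counts 8 and 12), and 28 were lower from day 2 to day 4.

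The list for the anaphase-promoting complex, which Cdc20 activates, was also read. It holds subunits, the E2 enzymes Ube2c and Ube2s, and the regulators Fzr1 and Fbxo5. Of its 18 genes, 6 were lower at day 2, close to the 31.6% of all tested transcripts, 5 from day 2 to day 4, against 16.4%, and 10 by day 4, against 36.1%, with a median of -0.36 by day 4. The list for cohesin, which separase cuts, holds ring subunits and regulators. Of its 13 genes, 8 were lower and 2 higher by day 4 (median -0.65), against 36.1% and 36.2% of all tested transcripts. Among 11 subunits of the DREAM and MMB complexes, 4 were lower and 2 higher by day 4 (median -0.22). The first is close to the 36.1% of all tested transcripts lower there, and 36.2% of them were higher. DNA replication genes, which act in S phase before mitosis, had 24 of 32 lower at day 2 (median -0.62), against 31.6% of all tested transcripts. From day 2 to day 4, 32 of 32 were lower (-0.78), against 16.4%, and 32 of 32 by day 4 (-1.39), against 36.1%. The differences between these lists and the mitosis genes were not tested.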

How the data were processed

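The deposited values are raw read counts per RefSeq transcript for each of 6 libraries, 2 at each of days 0, 2 and 4, grouped by the labelled time. Per the labels and the authors' methods, stranded mRNA libraries were trimmed with cutadapt, aligned to mm10 with TopHat and counted with HTSeq. The counting mode, its use of strand and the annotation release are not given in the sources used here. Reads on no feature were left out. They were 50.5% to 58.4% of the sum of these reads and the transcript counts, in which a read can enter more than once.

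Symbols, coordinates and promoters came from RefSeq (GRCm38.p6), which matched 32199 transcripts, with GENCODE adding 187. Lengths for TPM came from GENCODE and covered 93.8% of counts. The counts were fitted with edgeR 4.0.16 (R 4.3.3), with TMM factors (0.921 to 1.07), filterByExpr and 1 quasi-likelihood model with day as the factor. Tests were two-sided, p-values were Benjamini-Hochberg adjusted over 18351 transcripts, and calls needed an adjusted p below 0.05. The standard error of a change was its size divided by the root of F. The common biological coefficient of variation was 0.104. The study calls the replicates biological, and p-values measure the spread between these libraries. The fit was also run on simulated counts, read for day 4 against day 2 alone, which does not test the contrast of the steps.

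Members, roles and lists were chosen with earlier results of these data known, and 1 listed marker is not reported here. Values in every library are given for the member of each role with the highest mean CPM and the one with the largest change by day 4. Mad2l1, Ttk, Plk1, Cdc25c, Cdc20, Pttg1, Cenpa, Cenpe, Spc24, Top2a and Nusap1 lie outside that rule and were picked after their values were seen. Exon overlaps and shared 31-base words were taken from GENCODE. The alternatives were DESeq2 1.42.0, relative log expression factors, total counts, library sizes without globin transcripts, no low-count filter, fits of a pair of days alone, a replicate block, 1 transcript per gene, the longest transcript, a log2 fold change of at least 1 and leaving out each library.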

Additional observations from a re-analysis of the deposited data

How the results depend on the processing

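The counts of members lower were 24, 43 and 45 for day 2 against day 0, day 4 against day 2 and day 4 against day 0 with edgeR, with DESeq2 and with the replicate block, and leaving out 1 library gave 17 to 27, 32 to 44 and 44 to 45. A lower limit of 1 on the size of the log2 change, which fewer genes can pass by construction, left 2 and 12 in the steps. Members higher at day 2 went from 0 to 4 with total counts, to 1 with 1 transcript per gene and to between 0 and 4 when a library was left out; the cause was not tested. The number whose second step differed from the first was 24, 22 with DESeq2, 20 with the replicate block, 6 with a log2 difference of at least 1, and 0 to 30 when a library was left out. The labels do not say whether replicate numbers pair the libraries, and replicate differences correlated at 0.03 to 0.08 between days. First steps near 0 turned sign. With total counts that of Anln was 0.13, of Kif11 0.20 and of Mki67 0.15. Kif11 was also at 0.00896 without the low-count filter and at 0.0101 with 1 transcript per gene, and leaving out 1 library gave -0.151 to 0.0216 for Anln, -0.0658 to 0.0671 for Kif11 and -0.131 to 0.0304 for Mki67. TTTGAA went from 76.3% to 36.8% of member windows when only bases before the start were searched, since many matches begin after it. With 1 transcript per gene in the total, the median TPM of members at day 0 was 149 in place of 102. Depth limited no member, all of which had at least 14.8 CPM in every library.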
